A study of Mus musculus with 9 samples.

Results

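The proteasome genes of the standard (constitutive) particle were described in RNA-seq data of mouse macrophage lines. The members were chosen by gene symbol alone: Psma1 to Psma8, Psmb1 to Psmb7, Psmc1 to Psmc6 and every numbered Psmd gene, without the immunoproteasome genes Psmb8, Psmb9 and Psmb10. This rule found 35 of the 24411 genes in the deposited table. The study expanded macrophages from 3 tissues of C57BL/6 mice and compared the resulting lines, with 3 lines and 1 library per line in each group. The sources were yolk sac at E9.5 (YS lines), fetal liver at E14.5 (FL lines) and the bone marrow of adults (BM lines). The starting cells of a tissue were pooled from more than 1 mouse, and a line was the bulk culture of 1 dish or well. Growing colonies were collected and passaged further until their proliferation was relatively stable. Before that, most adherent cells in marrow and liver cultures had stopped proliferating, which was not always so in yolk sac cultures. All lines were kept in medium with 100 ng/mL recombinant human M-CSF, the growth factor that macrophages need, and no line was stimulated for these libraries. Since nothing says that the 3 lines of a tissue started from separate pools of mice, p-values measure only the spread between these lines.

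The 26S proteasome degrades proteins that carry ubiquitin chains. Its 20S core is a barrel of α and β subunit rings, and 3 of the β subunits cut the substrate inside the barrel. The 19S cap has a base, whose ATPases unfold the substrate and whose receptors bind ubiquitin, and a lid, which removes the ubiquitin chain. The transcription factor NFE2L1 raises proteasome genes together when proteasome activity is short. In macrophages the proteasome also cuts peptides for MHC class I, and interferon-γ lets immunoproteasome subunits take the place of the catalytic ones.

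Promoter sequences of 4 members are shown because NFE2L1 and its relative NFE2L2 bind antioxidant response elements, whose core is TGACNNNGC. They are the 250 bases before the start site, 5′ to 3′ on the strand of the gene, from RefSeq on GRCm38.p6, and capitals mark a match to TGACNNNGC on either strand. Psmb6 (chr11:70525107-70525356, plus strand) and Psmd12 (chr11:107479278-107479527, plus strand) were higher in YS and FL lines than in BM lines and held a match. Psmb5 (chr14:54617996-54618245, minus strand) held a match and was not called, and Psmd5 (chr2:34870963-34871212, minus strand) was lower in YS and FL lines and held none. These 4 were picked after their values were seen.
Psmb6: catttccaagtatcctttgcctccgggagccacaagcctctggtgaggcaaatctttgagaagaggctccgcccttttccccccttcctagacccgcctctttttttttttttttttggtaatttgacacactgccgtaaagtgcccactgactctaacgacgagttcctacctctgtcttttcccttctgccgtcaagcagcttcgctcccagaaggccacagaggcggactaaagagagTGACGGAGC
Psmd12: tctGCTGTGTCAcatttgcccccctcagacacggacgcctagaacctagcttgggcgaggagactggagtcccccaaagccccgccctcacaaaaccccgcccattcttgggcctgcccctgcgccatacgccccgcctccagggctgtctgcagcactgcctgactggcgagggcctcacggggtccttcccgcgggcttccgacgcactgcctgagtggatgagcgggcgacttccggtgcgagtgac
Psmb5: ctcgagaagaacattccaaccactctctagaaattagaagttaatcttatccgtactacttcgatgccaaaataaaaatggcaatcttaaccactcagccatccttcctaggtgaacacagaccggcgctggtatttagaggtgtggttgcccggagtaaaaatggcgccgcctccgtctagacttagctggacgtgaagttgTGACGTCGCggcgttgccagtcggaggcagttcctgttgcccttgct
Psmd5: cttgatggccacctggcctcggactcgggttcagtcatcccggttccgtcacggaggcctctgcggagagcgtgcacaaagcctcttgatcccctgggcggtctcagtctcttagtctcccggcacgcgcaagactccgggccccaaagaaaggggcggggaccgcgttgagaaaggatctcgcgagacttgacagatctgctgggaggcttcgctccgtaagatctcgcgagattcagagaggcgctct
The match began 9 bases before the start site in Psmb6, 47 bases before it in Psmb5 and, on the other strand, 247 bases before it in Psmd12. Promoters of 28 of the 35 members were found in the RefSeq table, and Psma8, Psmb1, Psmb2, Psmb7, Psmc3, Psmd3 and Psmd7 had no entry. In windows from 250 bases before to 50 bases after the start site, searched on both strands, TGACNNNGC was present for 5 of the 28 members (17.9%: Psmb5, Psmb6, Psmc6, Psmd9 and Psmd12) and in 12.4% of all 32851 promoters of that length. CCAAT, the letters bound by NF-Y, was present for 11 of the 28 members (39.3%) and in 37.4% of all promoters. It was in none of the 4 stretches printed here, so the matches do not overlap.

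Values were deposited as TPM, which is scaled by transcript length and to the same total in each library. It keeps no read counts, so the depth is unknown and precision was judged from the spread among lines. All 8 macrophage markers (such as Csf1r, the M-CSF receptor, and Spi1) reached at least 1 TPM in every library, but not all were at even levels. Fcgr1 was at 5.47, 42.1 and 1.68 TPM in BM lines 1 to 3. In FL lines it was at 110 to 172 TPM and in YS lines at 122 to 330 TPM. YS line 1 was the lowest library for Csf1r (1086 TPM) and Cd68 (1018 TPM). Summed markers of fibroblasts, hepatocytes, neutrophil precursors and T or B cells reached at most 20.6 TPM. The hemoglobin gene Hba-a1 reached 215 TPM in BM line 2, and no other library exceeded 8.62 TPM. The 4 endothelial markers summed to 0.08 to 1.70 TPM in BM, 18.9 to 51.8 TPM in FL and 5.37 to 56.0 TPM in YS lines. In FL lines and YS lines 2 and 3 the sum was mainly Kdr. In YS line 1 Kdr was at 0.29 TPM and Pecam1 at 4.91 TPM. Pecam1 stayed at 8.17 TPM or less, Cdh5 at 1.38 TPM or less and Tek at 0.04 TPM or less. Their part in the differences described here was not tested. BM line 2 also held RNA that the other BM lines lacked. There were 45 genes with at least 20 TPM in YS line 2 and under 0.5 TPM in both other BM lines, and 42 of them reached 1 TPM in BM line 2, where the median gene had 14.1% of its YS line 2 value. YS line 1 stood apart for genes of the X chromosome: 87.2% of its 352 tested X-linked genes were below the mean of the other YS lines, with a median log2 difference of -0.51, against 0.08 over 10808 autosomal genes. In bulk RNA, fewer cells that express a gene and less RNA per cell cannot be told apart.

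Proteasome RNA made up a slightly larger share of the library in YS and FL lines than in BM lines. The 35 members summed to 9055, 8657 and 9125 TPM in YS lines 1 to 3, 8680.4, 8038 and 8592 TPM in FL lines 1 to 3 and 6985, 7436 and 7386 TPM in BM lines 1 to 3. Each YS and FL line was thus above every BM line, while FL line 1 was above the lowest YS line. As a share of all TPM the means were 0.727 ± 0.0247% in BM, 0.844 ± 0.0348% in FL and 0.895 ± 0.0252% in YS lines (SD, n = 3). The 20S core's share of the member sum was 57.6 ± 0.281% in BM, 57.6 ± 0.972% in FL and 58.1 ± 1.78% in YS lines, and the 3 groups overlapped in this share. The ratio of summed core to summed base and lid RNA was 1.44 ± 0.0129 in BM, 1.42 ± 0.0563 in FL and 1.44 ± 0.117 in YS lines (SD, n = 3), with overlap between all groups. Per subunit, a core gene without Psma8 averaged 299 ± 10.9 TPM in BM, 347 ± 18.2 TPM in FL and 371 ± 15.7 TPM in YS lines, and a base or lid gene 170.5 ± 5.59 TPM in BM, 202 ± 7.48 TPM in FL and 212 ± 12.7 TPM in YS lines (SD, n = 3). The summed RNA of the 3 assembly chaperones Psmd5, Psmd9 and Psmd10 ran the other way, at 112, 148 and 165 TPM in YS lines 1 to 3, 138, 144 and 139 TPM in FL lines 1 to 3 and 185, 181 and 194 TPM in BM lines 1 to 3. Here each BM line was above every YS and FL line.

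**Figure D1:**
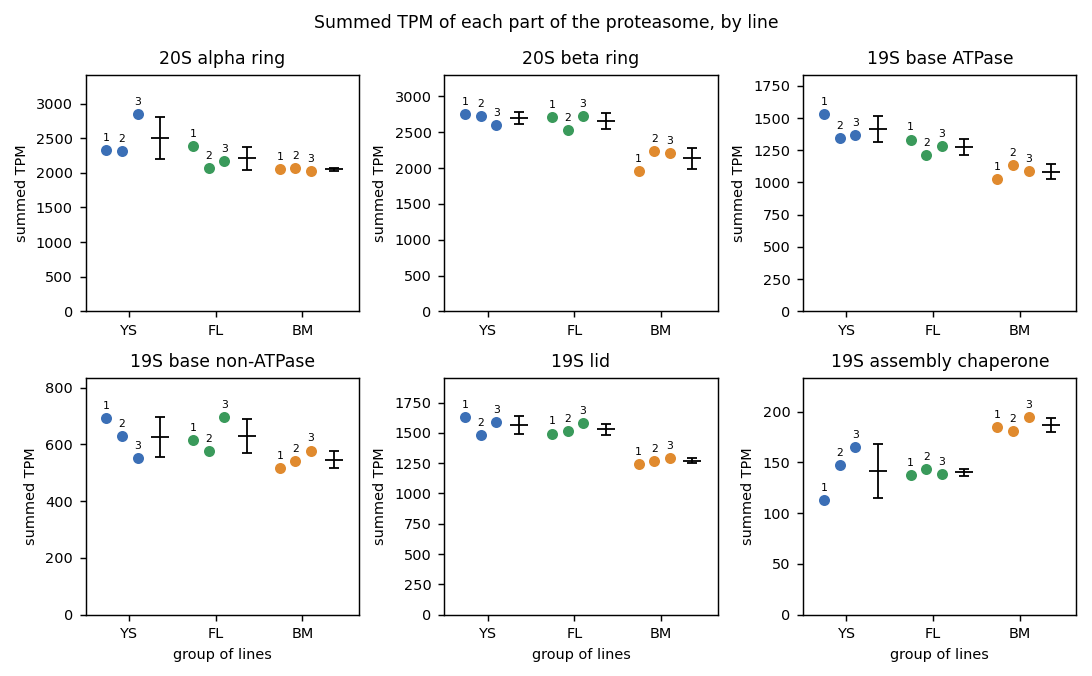
Summed TPM (vertical axis, from 0) of the 6 sub-complexes in each line, with numbered points for the 3 lines of each group (horizontal axis) and, beside them, the mean and SD. All YS and FL points lie above the BM points for the β ring, the base ATPases and the lid, and below them for the assembly chaperones, where BM lines sit at 181 to 194 TPM.

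Within the particle the subunits were not at one level. Psmb6 had the highest TPM of all members in 7 of the 9 libraries, Psma4 in YS line 3 and Psma6 in BM line 1. Psmd9 was the lowest tested member in 8 libraries and Psmd10 in YS line 1. The ratio of the highest to the lowest of the 14 expressed core genes was 1.82 ± 0.130 in BM, 2.74 ± 0.656 in FL and 2.25 ± 0.233 in YS lines (SD, n = 3). Over the 17 base and lid genes that ratio was 3.19 ± 0.0819 in BM, 4.38 ± 0.889 in FL and 4.22 ± 0.350 in YS lines, and Psmd8 was the highest and Psmd11 the lowest of them in mean TPM. Psma8, the testis-specific α subunit, was listed at 0 in all 9 libraries and was not tested. The other 34 members passed the filter of at least 1 TPM in at least 3 libraries, each at 22.4 TPM or more in every library.

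For the comparisons, a limma model over all 9 libraries was fitted to log2(TPM + 1) of 11753 genes, and a gene was called when its Benjamini-Hochberg adjusted p was under 0.1. Differences are log2 differences on that scale, which understates changes of genes with low TPM, with the standard error (SE) of the fit. Between YS and BM lines, 15 of the 34 tested members (44.1%) had higher and 2 had lower RNA in YS lines, where 23.5% of all genes tested were called higher, 14.4% lower and 37.9% in either direction. Between FL and BM lines, 9 members were higher (26.5%) and 1 was lower in FL lines, against 17.0% higher, 10.6% lower and 27.6% either way for all genes tested. The members called either way were thus 17 of 34 for YS lines and 10 of 34 for FL lines, and the second share, 29.4%, lies near the 27.6% of all genes. Between YS and FL lines a single member, Psma5, was called, higher in YS lines, against 6.2% of all genes called higher, 6.56% lower and 12.8% either way. An unadjusted p under 0.05 was reached by 6 members in that comparison. No member was called with a difference over 2-fold in any comparison, while such calls made up 12.8% (YS against BM), 10.3% (FL against BM) and 3.79% (YS against FL) of all genes tested. The median difference of the members was 0.24 for YS against BM, 0.12 for FL against BM and 0.04 for YS against FL, and over all genes tested it was 0.11, 0.09 and 0.02 in the same order.

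The counts depended on the BM lines, which are the same 3 controls in both comparisons. Without BM line 1, 8 members were called higher and 1 lower for YS, and 3 higher and 1 lower for FL, with 22.4% and 15.9% of all genes called either way. Without BM line 3 the numbers were 10 and 1 for YS lines and 4 and 1 for FL lines, against 21.9% and 15.0% of all genes. Without BM line 2, which held the RNA described above, 13 members were called higher and 1 lower for YS, and 6 higher and 1 lower for FL, against 27.7% and 19.5% of all genes. Scaling also moved them. Median-of-ratios scaling took the median of all genes between YS and BM lines from 0.11 to 0.00, the member median from 0.24 to 0.13 and the calls from 15 higher and 2 lower to 9 higher and 3 lower, with 18.2% of all genes called higher, 18.8% lower and 37.0% either way. The 12 of 34 members then called either way were a smaller share than the 37.0% of all genes. The 9 called higher were a larger share than the 18.2%. For FL lines the same scaling left 5 members higher and 1 lower, against 12.9% and 13.5% of all genes (26.4% either way). Of the 19 alternatives tried, 18 kept the threshold of 0.1 and 1 lowered it to 0.05, and losses of a call counted out of 18 refer to the former. Where a difference is given below as relative to all genes, the median of all genes has been subtracted.

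Judged by the values of the lines alone, 21 members were above all BM lines in every YS line and 3 were below, against 30.3% above and 18.7% below (49.0% either way) of all genes tested. In FL lines 16 were above and 2 below, against 31.0% and 18.5% (49.5% either way). Between YS and FL lines the values of 6 members were higher without overlap in YS lines and 1, Psma2, lower, against 12.6% and 13.5% (26.1% either way). Since both comparisons use the same BM lines, no overlap between them is tested here. Called higher in each were Psmb2, Psmb3, Psmb6, Psmc1, Psmc5, Psmd3, Psmd8 and Psmd12, and Psmd5 was lower in each. A further 8 members, Psma1, Psma4, Psma5, Psmb4, Psmc4, Psmd4, Psmd6 and Psmd10, were called for YS lines and not for FL lines, and Psmd2 for FL lines and not for YS lines. Of these 9, Psma5 alone was called between YS and FL lines. The other 16 tested members were called against BM lines in neither comparison.

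**Figure D2:**
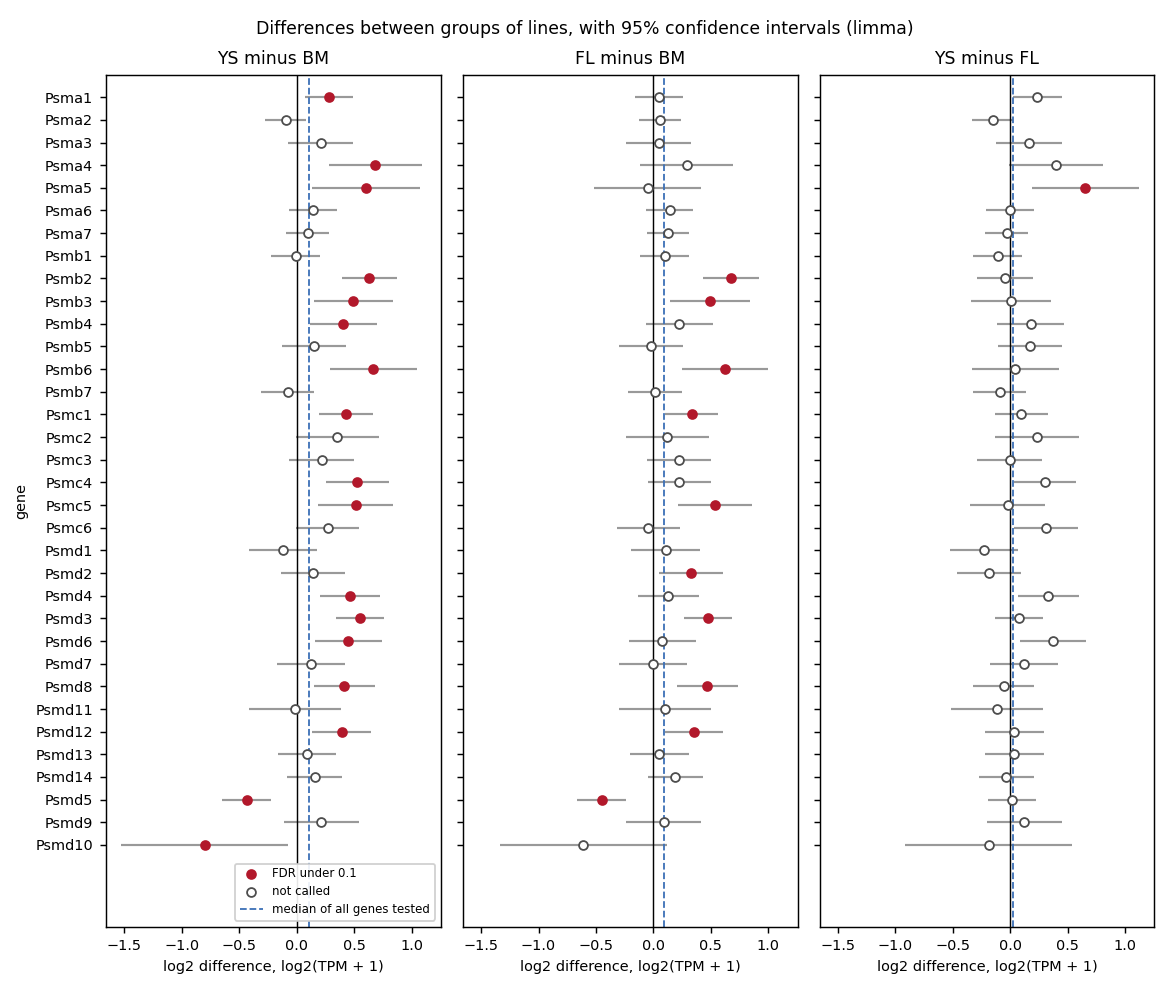
Log2 difference on the log2(TPM + 1) scale (horizontal axis) of the 34 tested members (rows) for YS minus BM, FL minus BM and YS minus FL lines, with the 95% confidence interval of the limma fit as a line. Filled points were called at an adjusted p under 0.1, and the dashed line is the median of all 11753 genes tested. In YS minus BM the called points lie at 0.28 to 0.68 or, for Psmd5 and Psmd10, at -0.44 and -0.80.

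The α ring forms the gate of the barrel and has no cutting activity of its own. Of its 7 tested genes, 3 (Psma1, Psma4 and Psma5) were higher in YS lines than in BM lines and none was lower, with a median difference of 0.21. Between FL and BM lines 0 were called by limma, and 0 had an unadjusted p under 0.05, with a median of 0.06 that turned to -0.04 under median-of-ratios scaling. Psma4 (α3) stood at 426, 397 and 619.5 TPM in YS lines 1 to 3, 422, 312 and 349 TPM in FL lines 1 to 3 and 288, 306 and 285 TPM in BM lines 1 to 3. All YS and FL lines were above all BM lines, with YS line 3 far above the other lines. The difference was 0.68 between YS and BM lines (SE 0.18, limma adjusted p = 0.024), or 0.58 relative to all genes, and 0.29 between FL and BM lines (adjusted p = 0.3). It was called between YS and BM lines under all 19 alternatives, with values from 0.49 to 0.81.

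Psma5 (α5) stood at 267, 281 and 446 TPM in YS lines 1 to 3, 252, 183 and 186 TPM in FL lines 1 to 3 and 203, 211 and 222 TPM in BM lines 1 to 3. YS line 3 was again the highest library, and FL line 1 was above all BM lines while FL lines 2 and 3 were below them. YS lines were above FL lines by 0.65 (SE 0.21, limma adjusted p = 0.095) and above BM lines by 0.60 (adjusted p = 0.058), and FL lines differed from BM lines by -0.05 (95% interval -0.52 to 0.42). The call between YS and FL lines was lost under 12 of 19 alternatives, among them the fit without YS line 3, with a difference of 0.42 at the lowest and adjusted p of 0.074 to 0.25. Of the 75-base windows in annotated Psma5 transcripts, 39.8% also occur in other genes, so part of its reads could not be assigned by sequence alone. Psma1 (α6) had a difference of 0.28 between YS and BM lines (limma adjusted p = 0.051) and 0.05 between FL and BM lines (adjusted p = 0.76), and the call for YS lines was lost under median-of-ratios scaling and without BM line 1 or 3. Psma2, Psma3, Psma6 and Psma7 were called in no comparison. YS line 3 was the highest YS line for all 7 α genes. Psma2 (α2) was the steadiest member, at 317 to 366 TPM over all 9 libraries, and the only core subunit whose YS values were all below its BM values, a difference of -0.10 (limma adjusted p = 0.39) that median-of-ratios scaling called as lower.

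The β ring carries the cutting sites. In YS lines 4 of its 7 genes were higher than in BM lines (Psmb2, Psmb3, Psmb4 and Psmb6), in FL lines 3 (Psmb2, Psmb3 and Psmb6), and none was lower in either. Summed β ring RNA was 2135 ± 150.0 TPM in BM, 2654 ± 111 TPM in FL and 2696 ± 83.5 TPM in YS lines (SD, n = 3). Against the α ring, the β ring sum stood at a ratio of 1.18, 1.18 and 0.913 in YS lines 1 to 3, 1.14, 1.22 and 1.25 in FL lines 1 to 3 and 0.957, 1.08 and 1.09 in BM lines 1 to 3. Every FL line was above every BM line in this ratio, and YS line 3 was the lowest library.

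Of the 3 catalytic subunits, Psmb6 differed from BM lines in both YS and FL lines and the other 2 were not called. Psmb6 (β1), which cuts after acidic residues, stood at 540.2, 640.4 and 530.0 TPM in YS lines 1 to 3, 565, 456 and 647 TPM in FL lines 1 to 3 and 300.5, 408 and 372 TPM in BM lines 1 to 3. No YS or FL line was as low as the highest BM line, and BM line 1 was the lowest library. Its difference was 0.67 between YS and BM lines (SE 0.17, limma adjusted p = 0.02) and 0.62 between FL and BM lines (SE 0.17, adjusted p = 0.031), or 0.56 and 0.53 relative to all genes. Without BM line 1 the second difference was 0.50 and was no longer called (limma adjusted p = 0.12). Psmb7 (β2), which cuts after basic residues, stood at 331, 315 and 293 TPM in YS lines 1 to 3, 357, 305 and 339 TPM in FL lines 1 to 3 and 307, 338 and 346 TPM in BM lines 1 to 3. The 3 groups overlapped, and the 95% intervals of the differences from BM lines were -0.31 to 0.15 for YS and -0.22 to 0.25 for FL lines. Psmb5 (β5), which cuts after hydrophobic residues and is the main target of proteasome inhibitors, stood at 367, 339.8 and 304 TPM in YS lines 1 to 3, 299, 276 and 322 TPM in FL lines 1 to 3 and 269.6, 299.8 and 342 TPM in BM lines 1 to 3. Its groups overlapped too, with differences of 0.15 between YS and BM lines (95% interval -0.13 to 0.43) and -0.02 between FL and BM lines (95% interval -0.30 to 0.26). For Psmb5, 36.8% of 75-base windows occur in other genes as well. Psmb6 and Psmb5 both have the TGACNNNGC match printed above, so a match was seen in a called and in an uncalled catalytic gene.

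Psmb2 (β4), a structural subunit, had the largest difference between FL and BM lines among the members. It stood at 364, 326 and 416 TPM in YS lines 1 to 3, 388, 364 and 382 TPM in FL lines 1 to 3 and 241, 240.4 and 227 TPM in BM lines 1 to 3. BM lines were tightly grouped and the lowest YS line lay well above them. The difference was 0.63 for YS lines (SE 0.11, limma adjusted p = 0.005) and 0.68 for FL lines (SE 0.11, adjusted p = 0.0037), a 1.55-fold and 1.60-fold higher level, and was called under all 19 alternatives in both comparisons. Relative to all genes it was 0.52 and 0.58. Psmb3 (β3) was higher by 0.49 in YS lines (limma adjusted p = 0.042) and by 0.49 in FL lines (adjusted p = 0.054), with FL line 2 highest at 439 TPM. Of its windows 33.1% are shared with other genes, and both calls were lost under median-of-ratios scaling and without BM line 1 or 3, that for FL lines also without FL line 2. Psmb4 (β7) was higher in YS lines by 0.41 (limma adjusted p = 0.045), with 312 ± 28.5 TPM in BM, 365 ± 35.9 TPM in FL and 415 ± 47.7 TPM in YS lines (SD, n = 3), a call lost under median-of-ratios scaling and without YS line 2 or BM line 1. Psmb1 (β6) stayed at 323 to 383 TPM over the 9 libraries.

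**Figure D3:**
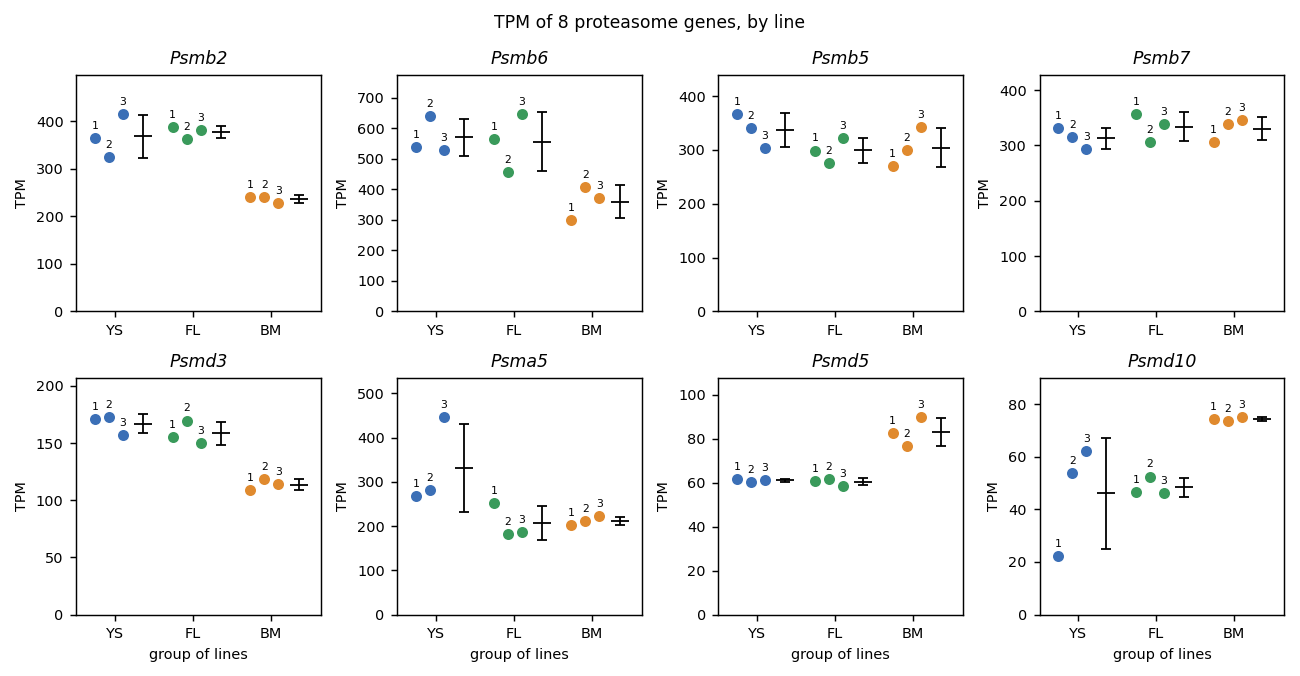
TPM (vertical axes, from 0) of 8 members in each line, with numbered points for the 3 lines of each group (horizontal axis) and the mean and SD beside them. Psmb2, Psmb6 and Psmd3 lie above BM lines in every YS and FL line, Psmb5 and Psmb7 overlap, Psma5 is highest in YS line 3, and Psmd5 and Psmd10 lie below BM lines, with YS line 1 lowest for Psmd10 at 22.4 TPM.

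The 6 ATPases of the base form the ring that pulls the substrate into the core. In YS lines 3 were higher than in BM lines (Psmc1, Psmc4 and Psmc5) and in FL lines 2 (Psmc1 and Psmc5). All 6 differences between YS and BM lines were positive, where the median difference of all genes tested was itself 0.11. Psmc5 (Rpt6) stood at 245, 198 and 197 TPM in YS lines 1 to 3, 201, 257 and 195 TPM in FL lines 1 to 3 and 136, 163 and 148 TPM in BM lines 1 to 3. FL line 2 and YS line 1 were the highest libraries, and the lowest YS and FL lines were still above the highest BM line. It differed by 0.51 between YS and BM lines (SE 0.14, limma adjusted p = 0.03) and by 0.54 between FL and BM lines (SE 0.14, adjusted p = 0.031). Without BM line 1 both calls were lost, at differences of 0.45 and 0.48, and the call for FL lines was also lost without BM line 3. Psmc1 (Rpt2) was higher by 0.43 in YS lines (limma adjusted p = 0.017) and 0.33 in FL lines (adjusted p = 0.052). The call of Psmc1 for YS lines held under all 18 alternatives at that threshold, and that for FL lines was lost under 7, namely both scalings and without FL line 1 or 3 or any one of the BM lines. Psmc4 (Rpt3) was higher in YS lines by 0.53 (limma adjusted p = 0.015), with YS line 1 the highest library at 270.1 TPM. Psmc2, Psmc3 and Psmc6 were not called, with differences of 0.35, 0.22 and 0.27 between YS and BM lines.

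The 3 other subunits of the base are the scaffold proteins Psmd1 and Psmd2, of which Psmd2 also docks shuttle factors, and the ubiquitin receptor Psmd4. Psmd4 (Rpn10) stood at 277, 258 and 220.2 TPM in YS lines 1 to 3, 204, 190.4 and 202 TPM in FL lines 1 to 3 and 166, 179 and 201 TPM in BM lines 1 to 3. It was higher in YS lines than in BM lines by 0.46 (SE 0.12, limma adjusted p = 0.021), a call made under all 19 alternatives, and FL lines overlapped with BM lines (0.13, adjusted p = 0.48). Its 3 YS values exceeded the highest FL value, with a mean difference of 0.33 and a limma adjusted p of 0.12. Psmd2 (Rpn1) stood at 253, 224 and 207 TPM in YS lines 1 to 3, 253, 230.2 and 297 TPM in FL lines 1 to 3 and 197, 206 and 215 TPM in BM lines 1 to 3. FL lines were above all BM lines, by 0.33 (SE 0.12, limma adjusted p = 0.097), and YS line 3 fell among the BM lines. The call in FL lines was lost under 12 of 19 alternatives, with values from 0.23 to 0.41 and adjusted p from 0.059 to 0.27. Psmd1 (Rpn2) was at 126 to 197 TPM over the libraries and was called in no comparison.

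In the lid, which carries the deubiquitinase, 4 of 8 genes were higher in YS lines (Psmd3, Psmd6, Psmd8 and Psmd12) and 3 in FL lines (Psmd3, Psmd8 and Psmd12), with none lower. Psmd3 (Rpn3), a scaffold subunit named here after its values were seen, stood at 171, 173 and 157 TPM in YS lines 1 to 3, 156, 169.7 and 150.1 TPM in FL lines 1 to 3 and 109, 118 and 114 TPM in BM lines 1 to 3. The lowest YS or FL line was at 150.1 TPM and the highest BM line at 118 TPM. Its difference was 0.55 for YS lines (SE 0.09, limma adjusted p = 0.0048) and 0.48 for FL lines (adjusted p = 0.0086), and it was called under all 19 alternatives in both comparisons. Psmd6 (Rpn7) stood at 199.8, 158 and 143 TPM in YS lines 1 to 3, 129, 123 and 130.5 TPM in FL lines 1 to 3 and 119.9, 126 and 116 TPM in BM lines 1 to 3. YS line 1 stood above the other libraries, and no FL or BM library reached the lowest YS value. YS lines exceeded BM lines by 0.45 (SE 0.13, limma adjusted p = 0.031) and FL lines by 0.37 (adjusted p = 0.11), and the first call was lost without BM line 3. Psmd14 (Rpn11), the deubiquitinase of the lid, stood at 175, 159.6 and 163 TPM in YS lines 1 to 3, 184, 148 and 179 TPM in FL lines 1 to 3 and 149, 149 and 148 TPM in BM lines 1 to 3. BM lines were nearly equal, and the differences were 0.16 for YS and 0.19 for FL lines (limma adjusted p = 0.29 and 0.24).

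Among the other lid genes, Psmd8 (Rpn12) was the most abundant, with 337 ± 16.1 TPM in BM, 468 ± 53.8 TPM in FL and 449 ± 40.7 TPM in YS lines (SD, n = 3). It was higher by 0.41 in YS lines and 0.47 in FL lines (limma adjusted p = 0.031 and 0.024), and the first call was lost under median-of-ratios scaling and without BM line 1 or 2. Psmd12 (Rpn5), whose promoter match lies far upstream, was higher by 0.39 and 0.35 (limma adjusted p = 0.032 and 0.056). The call of Psmd12 for YS lines was lost under median-of-ratios scaling and without BM line 1 or 3, and that for FL lines under both scalings and without FL line 2 or 3 or any one of the BM lines. Psmd7 (Rpn8), the inactive partner of Psmd14, was at 139.8 ± 3.04 TPM in BM, 139.6 ± 2.18 TPM in FL and 154 ± 29.0 TPM in YS lines (SD, n = 3). Psmd13 (Rpn9) was at 149 to 189.8 TPM and Psmd11 (Rpn6) at 94.6 to 149 TPM, where FL line 2 was the highest library. Psmd7, Psmd11 and Psmd13 were called in no comparison. FL line 2 also gave the highest Psmb3, Psmc5 and, among FL lines, Psmd3 and Psmd12, although it was the lowest FL line for 22 of the 34 members.

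The chaperones of 19S assembly, which hold the ATPases until the base is complete and then leave, include the 2 members that were lower in YS lines than in BM lines, and no chaperone was called higher. Psmd5 (S5b), named here after its values were seen, stood at 61.6, 60.5 and 61.1 TPM in YS lines 1 to 3, 60.7, 61.9 and 58.7 TPM in FL lines 1 to 3 and 82.7, 76.8 and 89.8 TPM in BM lines 1 to 3. The 6 YS and FL libraries lay within 58.7 to 61.9 TPM, below every BM line. Its difference was -0.44 for YS lines (SE 0.09, limma adjusted p = 0.011) and -0.45 for FL lines (SE 0.09, adjusted p = 0.011), a 1.35-fold and 1.37-fold lower level. Relative to all genes these were -0.54 and -0.54, and both calls held under all 19 alternatives. Psmd10 (gankyrin) stood at 22.4, 53.9 and 62.3 TPM in YS lines 1 to 3, 46.6, 52.5 and 46.1 TPM in FL lines 1 to 3 and 74.6, 73.5 and 75.1 TPM in BM lines 1 to 3. BM lines were nearly equal and above all other libraries, and YS line 1 was far below the other YS lines. Its difference from BM lines was -0.80 for YS lines (SE 0.32, limma adjusted p = 0.093) and -0.61 for FL lines (adjusted p = 0.22), the second not called. Without YS line 1 the difference of YS lines was -0.36 and still called, and without YS line 3 it was -1.07, over 2-fold. The call was lost under 10 of 19 alternatives. Psmd10 is the only member on the X chromosome. Genes of that chromosome were mostly lower in YS line 1 than in the other YS lines, as given above. The part of this in the Psmd10 value there was not tested. Psmd9 (p27), the remaining chaperone, stood at 28.5, 33.2 and 41.4 TPM in YS lines 1 to 3, 30.5, 29.4 and 33.7 TPM in FL lines 1 to 3 and 27.8, 30.3 and 29.6 TPM in BM lines 1 to 3. It overlapped between the groups, with differences of 0.21 and 0.09 from BM lines (limma adjusted p = 0.29 and 0.7).

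**Figure D4:**
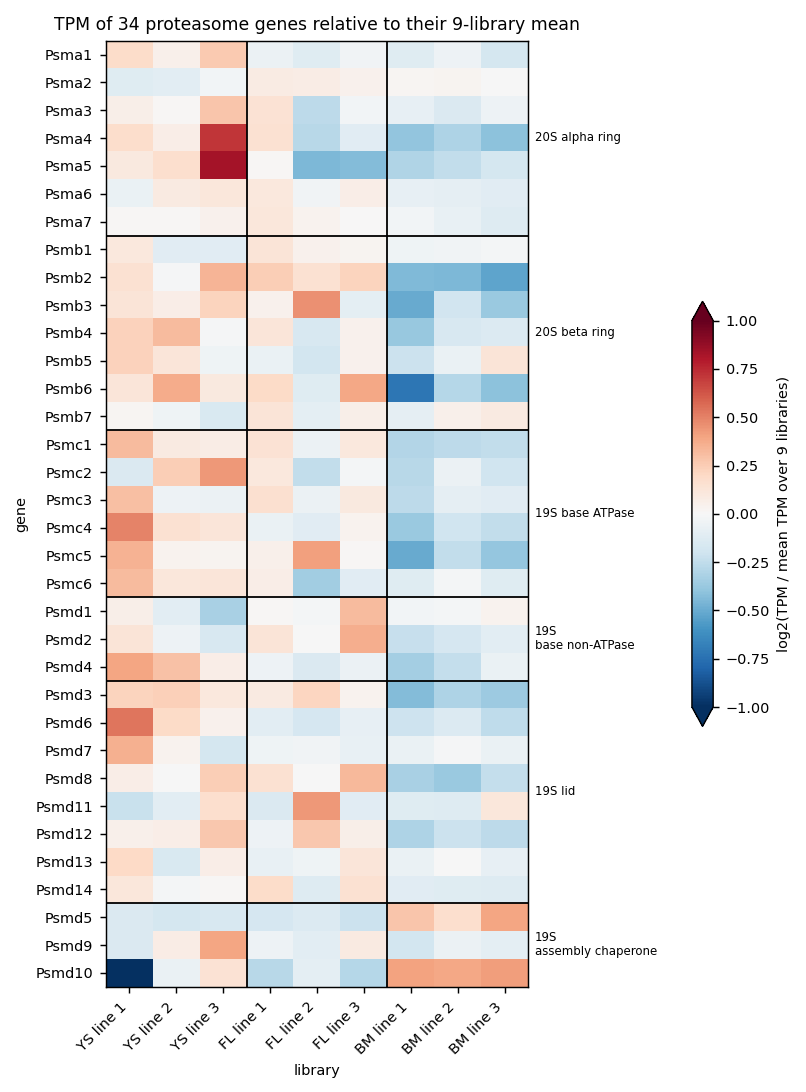
TPM of the 34 tested members (rows, by sub-complex) in the 9 libraries (columns), as the log2 ratio to the gene's mean over the libraries, with red for higher and blue for lower and colours cut off at -1 and 1. BM columns are mostly blue in the β ring, base ATPases and lid, Psmd5 and Psmd10 are red there, and Psma4 and Psma5 stand out in YS line 3 as Psmd10 does in YS line 1.

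The lines of one tissue differed less in proteasome RNA than in the median gene. The median SD among the 3 lines on the log2(TPM + 1) scale was 0.06 for the members in BM, 0.11 in FL and 0.15 in YS lines, against 0.11, 0.18 and 0.28 over all 11753 genes, which include genes of low TPM. YS line 1 was the highest YS line for 16 members and YS line 3 for 15, and YS line 2 for 3. For YS line 1 these were mainly genes of the 19S cap. Its core to cap ratio of 1.32 was the lowest of the 9 libraries and that of YS line 3, 1.55, the highest. BM line 1 was the lowest BM line for 20 of 34 members, among them Psmb6 and Psmc5.

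Of 41 other genes of the pathway with a row in the table, 40 were tested. Against BM lines, 19 of them were called higher and 5 lower for YS, and 9 higher and 3 lower for FL. That is 60% and 30% of the 40, against 37.9% and 27.6% of all genes, so the share for FL lies near that of all genes. Under median-of-ratios scaling these counts became 10 and 6 for YS and 4 and 6 for FL, against 37.0% and 26.4% of all genes either way. Without BM line 1 they were 9 and 3 for YS and 3 and 3 for FL (22.4% and 15.9% of all genes), and without BM line 3 they were 9 and 3 for YS and 4 and 3 for FL (21.9% and 15.0%). Without BM line 2 they were 12 and 4 for YS and 7 and 3 for FL (27.7% and 19.5%). All 3 tested immunoproteasome genes were higher in YS lines and 2 of them in FL lines. Psmb10, which replaces Psmb7, stood at 162, 163 and 213 TPM in YS lines 1 to 3, 137, 84.2 and 107 TPM in FL lines 1 to 3 and 42.5, 64.5 and 32.7 TPM in BM lines 1 to 3, a difference of 1.97 for YS lines and 1.25 for FL lines (limma adjusted p = 0.0024 and 0.012). Its ratio to Psmb7 on the TPM scale was 0.141 ± 0.0482 in BM, 0.326 ± 0.0551 in FL and 0.577 ± 0.129 in YS lines (SD, n = 3), without overlap between the groups. Psmb8, which replaces Psmb5, was higher by 1.04 in YS lines (limma adjusted p = 0.026) and by 0.77 in FL lines (adjusted p = 0.087), the second call being lost under 10 of 18 alternatives, among them both scalings and the fits without BM line 1 or 3. For Psmb9, which replaces Psmb6, the difference was 1.17 for YS lines (limma adjusted p = 0.034) and 0.61 for FL lines (adjusted p = 0.24), and the call for YS lines was lost without BM line 3. Both Psmb8 and Psmb9 were lowest in BM line 3. The ratio of Psmb8 to Psmb5 was 0.595 ± 0.203 in BM, 1.00 ± 0.239 in FL and 1.10 ± 0.415 in YS lines (SD, n = 3), with every YS and FL value above the BM values, while the ratio of Psmb9 to Psmb6 overlapped between the groups.

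Of 6 activator and inhibitor genes of the core, 4 were called higher in YS lines than in BM lines, 0 in FL lines than in BM lines by limma (0 at an unadjusted p under 0.05) and 2 in YS lines than in FL lines. Of all genes tested, 23.5%, 17.0% and 6.2% were called higher in the same order. The 4 were Psme1, Psme2, Psme2b and Psme3, and the 2 were Psme1 and Psme2. The 4 became 2 under median-of-ratios scaling or without BM line 1, and 1 without BM line 3. The 2 became 1 under median-of-ratios scaling or without any one of the BM lines. Both calls against FL lines were lost with only the 2 groups compared and without FL line 2 or 3. Psme1 (PA28α) stood at 425, 413 and 549 TPM in YS lines 1 to 3, 311, 231 and 239.8 TPM in FL lines 1 to 3 and 205, 265 and 189 TPM in BM lines 1 to 3, higher in YS lines by 1.07 against BM lines and 0.83 against FL lines (limma adjusted p = 0.0048 and 0.045). Its partner Psme2 (PA28β), which has a near-identical copy, Psme2b, that may share its reads, was higher by 0.64 against BM lines (limma adjusted p = 0.057) and 0.69 against FL lines (adjusted p = 0.095). Psme3 (PA28γ), an activator of the nucleus, was higher in YS lines by 0.43 (limma adjusted p = 0.068), a call lost under 6 of 18 alternatives, and Psme4 (PA200) and the inhibitor Psmf1 (PI31) were not called. Of the activators only Psme1 stayed called against BM lines under all 18. In core assembly, Pomp, the maturation factor of the β ring, stayed at 319 to 401 TPM and was not called, while Psmg1 was higher in YS and FL lines (0.70 and 0.65, limma adjusted p = 0.025 and 0.042) and its dimer partner Psmg2 lower (-0.72 and -0.53, adjusted p = 0.0044 and 0.015). Psmg2 held both calls and Psmg1 that for YS lines under all 18 alternatives, while the call of Psmg1 for FL lines was lost without FL line 1 or 2 or any one of the BM lines. Adrm1 (Rpn13), a ubiquitin receptor outside the symbol rule, was higher by 0.23 and 0.31 (limma adjusted p = 0.085 and 0.042), calls lost under 13 and 5 of 18 alternatives, in both cases under both scalings and without BM line 1 or 3. The lower genes were Psmg2, Txnl1, Zfand5, Usp14 and Nfe2l1 in YS lines and the first 3 of these in FL lines.

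Of the related transcription factor genes, Nfe2l1 was called lower in YS lines and Nfe2l2 higher in FL lines, and neither call held under every alternative. Nfe2l1 stood at 94.2, 145 and 141 TPM in YS lines 1 to 3, 150.3, 211 and 171 TPM in FL lines 1 to 3 and 170.2, 169 and 197 TPM in BM lines 1 to 3. YS lines were below all BM lines, with a difference of -0.51 (SE 0.19, limma adjusted p = 0.073), a call lost under 6 of 18 alternatives, among them leaving out any one of the BM lines, and FL lines overlapped with BM lines (-0.02, adjusted p = 0.96). Nfe2l2 stood at 135, 144 and 147 TPM in YS lines 1 to 3, 147, 168 and 174 TPM in FL lines 1 to 3 and 123, 120.3 and 134 TPM in BM lines 1 to 3, higher in FL lines by 0.37 (limma adjusted p = 0.034), and not called in YS lines (0.18, adjusted p = 0.22). The call of Nfe2l2 was lost under median-of-ratios scaling and without FL line 3 or BM line 1 or 2. RNA levels of these factors do not measure their protein or activity.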

How the data were processed

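Poly(A) RNA of 9 macrophage lines (3 YS, 3 FL and 3 BM) was sequenced by the authors as strand-specific libraries with single reads of 75 nt. Values were deposited as TPM per gene symbol, made with Trim Galore 0.6.6, STAR 2.7.9a and RSEM 1.3.3 according to the submitters' processing notes. The genome build and annotation are not given in the sources used here, and the raw counts of the study's own analysis were not used here. TPM sums to the same total in each library (999999.6 to 1000000.25) and keeps no depth, so counting error could not be computed.

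A gene was kept if 3 or more of the 9 libraries reached 1 TPM, and log2(TPM + 1) was fitted with limma 3.58.1 in R 4.3.3 (eBayes with an intensity trend). All 9 libraries shared one estimate of the spread, p-values were two-sided, and Benjamini-Hochberg adjustment was made over all genes tested within each comparison. A call is an adjusted p under 0.1. With 3 lines against 3, an exact permutation test cannot go below p = 0.1, so none was used for single genes. The fit was also run on simulated data with 200 changed genes, independent noise and, for each gene, the same spread in every group. The real groups differed in spread, so that run does not measure how reliable the calls on these data are. The members were set by gene symbol alone, but that rule, the gene lists and the markers were written with earlier results of these data known.

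Genes given with full values were the catalytic subunits Psmb5, Psmb6 and Psmb7, the receptor and deubiquitinase genes Psmd2, Psmd4 and Psmd14, the members with the highest and lowest mean, any member called over 2-fold, the 4 with the largest differences in each comparison, and pathway genes called over 2-fold or fixed by name. Others, such as Psmd3 and Psmd5, were named after their values were seen. Windows of 75 bases that several genes share were counted in GENCODE M21 transcripts of the reference supplied with the data. Lines have replicate numbers, but the deviations of same-numbered lines from their group means correlated at only -0.12 to 0.09 over 9 pairs, so the numbers were not taken to pair them. The 19 alternatives were other pseudocounts (0.1 and 4), filters (none and 5 TPM), quantile and median-of-ratios scaling, no intensity trend, only the 2 groups compared, a replicate block, each line left out, and a threshold of 0.05.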

Additional observations from a re-analysis of the deposited data

How the results depend on the processing

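Of 17 named results that were called, 9 stayed called under all 19 alternatives (Psma4 and Psmd4 between YS and BM lines, Psmb6 between YS and BM lines, and Psmb2, Psmd3 and Psmd5 in both comparisons with BM lines), none changed direction, and 44 of 323 values lost the call. Psmd3 and Psmd5 were named after their values were seen, and several others for having the largest differences. The 9 of 17 is thus a count over genes picked from these data and not a share for all members. Calls between YS and BM lines ranged from 9 to 19 when one line was left out (17 with all lines), those between FL and BM lines from 4 to 12 (10 with all lines), and those between YS and FL lines from 0 to 2 (1 with all lines). The low ends came without BM line 1 (9 and 4), followed by BM line 3 (11 and 5), and the high ends without YS line 1 (19 and 12). The calls over 2-fold between YS and BM lines were 0 to 1, the latter being Psmd10 without YS line 3. Between FL and BM lines 6 members were called under median-of-ratios scaling and 6 at a threshold of 0.05. The single call between YS and FL lines became 0 with no filter, with median-of-ratios scaling, with no intensity trend, with only the 2 groups compared, at a threshold of 0.05 and with the replicate block. The replicate block gave 17 calls between YS and BM lines and 9 between FL and BM lines, where Psmd2 was lost, and lines shared only a number. The median difference of the members moved to 0.13 between YS and BM lines under median-of-ratios scaling, and between FL and BM lines to 0.058 under quantile and 0.030 under median-of-ratios scaling. Why these settings changed the calls was not tested.

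Differences near 0 changed sign in 24 cases, none of them called. Between FL and BM lines, Psmb7 turned to -0.045 under quantile and -0.080 under median-of-ratios scaling, Psmd9 to -0.020 and -0.00045, and Psmd6 to -0.015 under median-of-ratios scaling. Between YS and FL lines, Psmd5 turned to -0.025 under quantile and -0.0021 under median-of-ratios scaling. With one line left out, values between FL and BM lines ranged from -0.20 to 0.029 for Psma5, -0.10 to 0.069 for Psmb5 and -0.039 to 0.076 for Psmb7. Between YS and FL lines they ranged from -0.13 to 0.042 for Psmb2, -0.090 to 0.16 for Psmb6, -0.13 to 0.10 for Psmc5, -0.46 to 0.26 for Psmd10, -0.13 to 0.025 for Psmd14, -0.0050 to 0.033 for Psmd5 and -0.016 to 0.25 for Psmd9. TPM keeps no read depth, so the precision of low genes such as Psmd9 is known only from the 3 lines per group.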

Other observations

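Genes of the X chromosome other than Psmd10 were also lower in YS line 1 than in the other YS lines. Uba1, the main ubiquitin-activating enzyme, was at 156 TPM there and at 233 and 209.8 TPM in YS lines 2 and 3. In BM lines 1 to 3 Uba1 was at 131, 165 and 146 TPM, so YS line 1 lay within their range. Ubqln2, a shuttle factor that carries ubiquitinated proteins to the proteasome, was at 18.3 TPM in YS line 1 and at 34.7 and 58.9 TPM in YS lines 2 and 3. In BM lines 1 to 3 Ubqln2 was at 37.2, 36.2 and 44.4 TPM. Across 352 tested X-linked genes the median log2 difference of a line from the mean of the other 2 lines of its tissue was -0.51 in YS line 1, 0.24 in YS line 2 and 0.25 in YS line 3, and lay between -0.03 and 0.02 in the FL and BM lines. Over 10808 autosomal genes it lay between -0.06 and 0.08 in all 9 lines. This measure sets a line only against its own tissue. Low values in YS line 1 and high values in YS lines 2 and 3 thus cannot be told apart by it. Xist, the RNA that silences an X chromosome in female cells, was at 303 and 176 TPM in FL lines 2 and 3 and at 0.08 TPM or less in the other lines. The Y-linked genes Ddx3y and Eif2s3y were at 47.7 and 66.4 TPM in FL line 1 and at 0.03 TPM or less elsewhere.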
